A study of Homo sapiens with 9 samples.

Results

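The 58 genes described here encode the proteins that carry a cell from G1 into S phase and copy its DNA. They were chosen by symbol from the deposited table of 28216 genes and were sorted by role. There are 9 G1 cyclins, kinases and phosphatases, 7 E2F factors and pocket proteins, 11 factors of origin licensing, 6 of helicase activation, 5 of the sliding clamp and its loader, 9 polymerase, primase and strand-joining genes, 4 genes of deoxynucleotide supply, 1 gene of methylation maintenance and 6 of checkpoint and homologous repair. Poly(A)-selected RNA was sequenced from 3 libraries each of 3 groups, and the labels give every group the genotype WT. LNCaP (clone FCG) and PC3 are established epithelial lines that were both grown from prostate cancer metastases. LNCaP cells spent 24 h in RPMI free of phenol red that held 10% charcoal-stripped serum, which is poor in steroid hormones, and then 48 h with 10 nM dihydrotestosterone (DHT) or with vehicle, 0.01% ethanol. PC3 cells had no treatment and grew in F12K medium with 10% untreated serum, so line, medium and serum cannot be told apart in any comparison of PC3 with LNCaP. DHT is the agent given with the samples and in the supplement, whereas the main text of the study gives the synthetic androgen R1881. No source says whether the replicates of a group were separate cultures, so p-values measure only the spread between these libraries.

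In G1, D-type cyclins with CDK4 or CDK6 and E-type cyclins with CDK2 phosphorylate the pocket proteins, which releases E2F factors to activate the genes of replication. Origins are licensed when the origin recognition complex, CDC6 and CDT1 load the MCM helicase, and they fire when CDC45 and the GINS complex join it. Primase and the polymerases then copy the strands, held to the template by the PCNA clamp that the RFC complex loads. LNCaP cells depend on androgen for growth, and their response to it is known to vary with the dose, while PC3 cells grow without it. In bulk RNA, fewer cells in S phase and less RNA per cell cannot be told apart.

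The libraries held between 17397706 and 25640325 counts on genes. A count of 0 allows up to 0.118 to 0.165 CPM, the unit of all levels here (counts over the library total, corrected by TMM factors), for counting error only. EPCAM, KRT8, KRT18 and CDH1, the epithelial markers, had 229 or more counts in every library. KLK2 had 0 counts in all PC3 libraries, while the receptor kinase gene AXL, used as a marker of PC3 cells, had 7495 to 9020 counts there and 1 to 50 in LNCaP libraries. Among the listed blood, endothelial and fibroblast markers, the T cell marker CD3E and the endothelial marker CDH5 were at 0 counts in all libraries. The others were not absent. In PC3 libraries PTPRC had 4 to 7 counts and the endothelial gene PECAM1 47 to 85, against 0 and 0 to 1 in LNCaP libraries. The collagen gene COL1A1 had 842 to 1013 counts in PC3 and 255 to 469 in LNCaP libraries, and COL3A1 90 to 150 and 1 to 20.

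The PC3 libraries stood apart from each other in these genes. Over the 57 members above the filter in any comparison (3 CPM in at least 3 libraries), the median coefficient of variation was 45.45% among PC3 libraries, against 10.13% over all 12843 genes. It was 9.844% among DHT-treated and 8.589% among vehicle-treated LNCaP libraries, against 5.341% and 4.777% over all genes. PC3 replicate 2 was the highest and replicate 3 the lowest for 50 of 57 members, an order held by 24.53% of all genes. The median ratio of replicate 2 to replicate 3 was 2.554, from 0.9796 for E2F3 to 21.74 for E2F2. The 58 members took 0.368%, 0.501% and 0.251% of the counts of PC3 replicates 1, 2 and 3, 0.208% to 0.236% in DHT-treated and 0.525% to 0.607% in vehicle-treated LNCaP cells. The summed CPM of 30 mitosis genes moved with them in PC3 cells, from 4343 in replicate 2 to 2133 in replicate 3, and its part in the results was not tested. The counts of members called in PC3 cells are therefore given with and without single PC3 libraries.

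**Figure D1:**
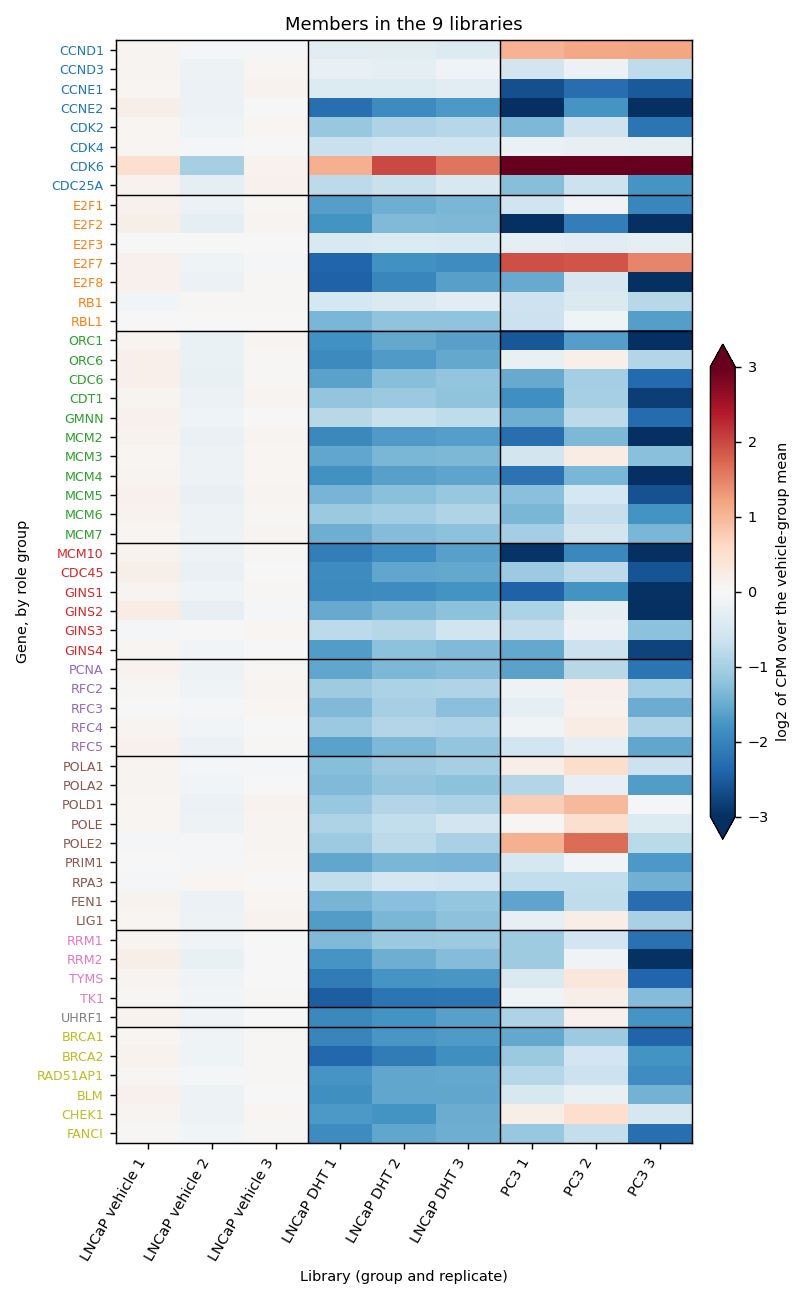
Level of 57 members (rows, coloured and ruled by role group) in each library (columns), as log2 of the CPM over the mean of the vehicle-treated group; blue is lower, red higher, and colours stop at 3 in either direction. CCND2, with 0 to 4 counts per library, is left out. All DHT-treated libraries are blue for nearly every gene, and the PC3 columns differ from each other, replicate 2 being the highest and replicate 3 the lowest for 50 of the 57 genes.

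DHT treatment of LNCaP cells was compared with vehicle to find out what the androgen did to the transcriptome, and the replication genes were lower throughout. Of the 58 members, 56 were tested, all above 3 CPM in each of the 6 libraries, and 40 were called lower, with an adjusted p-value under 0.05 and at least a 2-fold change. No member was called higher, by edgeR or by DESeq2, and none was higher at an unadjusted p-value under 0.05. Over all 11697 genes tested, 7.49% were called lower and 6.54% higher. At any fold, 56 of 56 members had an adjusted p-value under 0.05 and lower values with DHT, as had 37.8% of all genes, while 37.1% of all genes were higher. The median log2 fold change of the members was -1.37, which is 2.578-fold lower, against -0.0068 over all genes. It ranged from -2.28 for TK1 to -0.20 for CCND3. All DHT-treated libraries lay below all vehicle-treated ones for 55 of the 56 members, the exception being CCND3, and 39.4% of all genes lay below in the same way. Libraries of the same replicate number gave 56 lower values of 56 each time, with median log2 ratios of -1.64, -1.13 and -1.30 for replicates 1, 2 and 3. The number called lower was between 39 and 44 when single libraries were left out.

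**Figure D2:**
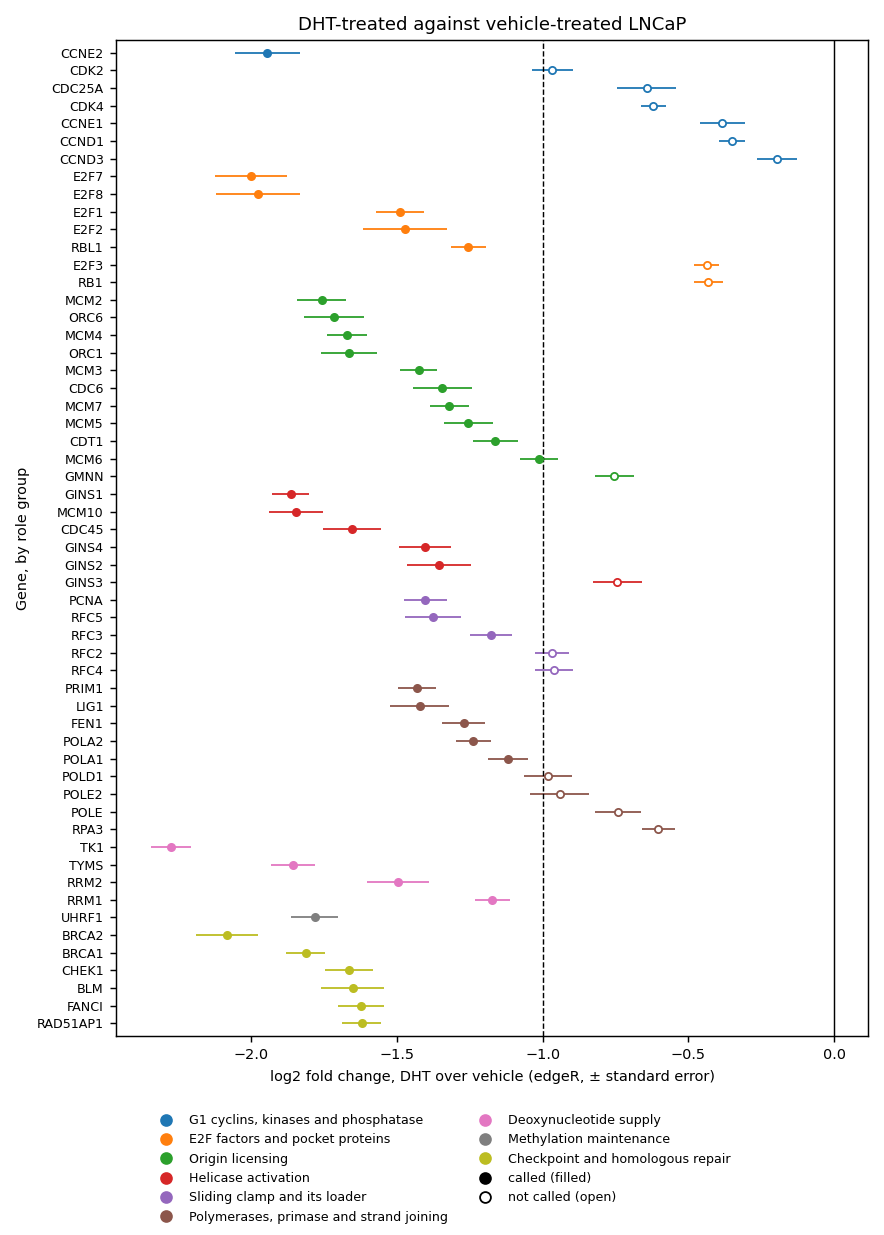
Log2 fold change of the 56 tested members in DHT-treated over vehicle-treated LNCaP cells (edgeR, bars are standard errors, n = 3 libraries per group), by role group; the dashed line marks a 2-fold fall. All points lie left of 0, from -2.28 for TK1 to -0.20 for CCND3, and 40 filled points mark the genes called lower.

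The G1 regulators moved least, apart from cyclin E2. CCNE2 (chromosome 8, 94879770 to 94896678 of GRCh38, minus strand), one of the E-type cyclins that activate CDK2, had 67.3, 52.9 and 58.8 CPM in vehicle replicates 1, 2 and 3 and 12.5, 16.1 and 18.1 CPM in the DHT-treated libraries. The highest value with DHT lay far below the lowest with vehicle. The log2 fold change was -1.94 (standard error 0.112, edgeR adjusted p = 4.63e-09). CDK2 (chromosome 12, 55966781 to 55972789) had 95.9, 83.6 and 94.8 CPM with vehicle and 41.5, 48.4 and 50.5 with DHT, a log2 fold change of -0.97 (standard error 0.0698, edgeR adjusted p = 4.03e-08) just short of 2-fold. CDC25A, the phosphatase that activates CDK2, and CDK4 were lower by less than 2-fold, with log2 fold changes of -0.64 and -0.62. The values were -0.38 for CCNE1, -0.35 for CCND1 and -0.20 for CCND3, whose groups overlapped. CCND2 held 0 to 4 counts per library and was not tested. CDK6 (chromosome 7, 92604921 to 92836573) stayed under the filter, with 18, 6 and 14 counts in the vehicle-treated and 31, 53 and 40 in the DHT-treated libraries, the opposite order to the tested members. The summed level of 6 PC3 markers was also higher in 2 of the 3 DHT-treated libraries than in any vehicle-treated one, at 42.33, 24.43 and 20.16 CPM against 24.01, 16.19 and 17.83, with CAV1 at 0 in vehicle replicate 2. DHT replicate 1, with the most of these markers, held the fewest counts of CDK6 in its group, and their part in its level was not tested.

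Among the E2F factors and pocket proteins, 5 of 7 were called lower, with the largest changes in the atypical repressors E2F7 and E2F8. E2F7 (chromosome 12, 77021248 to 77065569) had 26.1, 21.8 and 23.1 CPM with vehicle and 4.57, 6.71 and 6.55 with DHT, a log2 fold change of -2.001 (standard error 0.124, edgeR adjusted p = 8.92e-09). E2F8 (chromosome 11, 19224063 to 19241620) had 28.3, 22.8 and 26.5 and 4.79, 6.66 and 8.42 CPM, a log2 fold change of -1.98 (standard error 0.145, edgeR adjusted p = 4.69e-08). E2F2 (chromosome 1, 23506438 to 23531233), an activator, had 16.4, 11.9 and 15.3 and 4.21, 5.82 and 5.74 CPM, a log2 fold change of -1.47 (standard error 0.145, edgeR adjusted p = 8.91e-07). In all of these genes the lowest value was that of DHT replicate 1. The activator E2F1 and the pocket protein gene RBL1 were called lower too, with log2 fold changes of -1.49 and -1.25. E2F3 and RB1 were lower by less than 2-fold, at -0.44 and -0.43.

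Origin licensing was lowered almost as a whole, with 10 of 11 genes called. MCM2 (chromosome 3, 127598410 to 127622436), a subunit of the hexameric helicase, had 232, 187 and 229 CPM with vehicle and 56.5, 67.1 and 68.4 with DHT, a log2 fold change of -1.76 (standard error 0.0838, edgeR adjusted p = 7.11e-10). MCM4 (chromosome 8, 47960185 to 47978160) had 293, 248 and 290.0 and 78.3, 90.1 and 92.4 CPM, a log2 fold change of -1.67 (standard error 0.0694, edgeR adjusted p = 1.86e-10). The origin recognition subunits ORC6 and ORC1 were lowered to a like extent. ORC6 (chromosome 16, 46689643 to 46698394) had 46.7, 36.2 and 42.6 and 11.1, 12.8 and 14.3 CPM, a log2 fold change of -1.72 (standard error 0.103, edgeR adjusted p = 6.88e-09), and ORC1 (chromosome 1, 52372829 to 52404423) had 37.4, 30.9 and 37.7 and 9.98, 12.1 and 11.3 CPM, with -1.67 (standard error 0.0952, edgeR adjusted p = 4.25e-09). MCM3, CDC6, MCM7, MCM5 and CDT1 had log2 fold changes of -1.43, -1.34, -1.32, -1.25 and -1.16. MCM6 lay just inside the 2-fold line at -1.01, and GMNN, the inhibitor of CDT1, outside it at -0.75.

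For helicase activation, 5 of 6 genes were called lower. GINS1 (chromosome 20, 25391008 to 25452700) had 88.6, 76.9 and 85.2 CPM with vehicle and 22.2, 22.5 and 24.1 with DHT, and the DHT-treated libraries differed little from each other. Its log2 fold change was -1.87 (standard error 0.0626, edgeR adjusted p = 2.5e-11). MCM10 (chromosome 10, 13161558 to 13211110), which acts when the helicase is switched on, had 71.9, 60.1 and 68.4 and 15.8, 18.5 and 21.5 CPM, a log2 fold change of -1.85 (standard error 0.0925, edgeR adjusted p = 1.14e-09). CDC45, GINS4 and GINS2 followed at -1.65, -1.40 and -1.36, and GINS3 was lower by less than 2-fold, at -0.74. Of the reads on GINS3, 16.5% lay on the other strand, the most among members.

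The clamp and its loader were called lower in 3 of 5 genes. PCNA (chromosome 20, 5114953 to 5126626), the clamp itself, had 269.9, 223 and 255 CPM with vehicle and 84.1, 97.9 and 101 with DHT, a log2 fold change of -1.40 (standard error 0.0725, edgeR adjusted p = 1.54e-09). RFC5 (chromosome 12, 118013588 to 118033130) had 82.5, 66.4 and 77.2 and 24.6, 29.4 and 33.3 CPM, a log2 fold change of -1.38 (standard error 0.0957, edgeR adjusted p = 2.82e-08). The other loader subunits lay around the 2-fold line, RFC3 inside at -1.18 and RFC2 and RFC4 outside at -0.97 and -0.96.

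Of the polymerase, primase and strand-joining genes, 5 of 9 were called lower. PRIM1 (chromosome 12, 56730438 to 56752374), the catalytic primase subunit, had 42.6, 41.4 and 44.4 CPM with vehicle and 14.6, 16.7 and 16.3 with DHT, a log2 fold change of -1.43 (standard error 0.0656, edgeR adjusted p = 4.83e-10). LIG1 (chromosome 19, 48115445 to 48170603), which seals Okazaki fragments, had 35.2, 30.3 and 36.2 and 10.7, 13.0 and 14.4 CPM, a log2 fold change of -1.42 (standard error 0.1, edgeR adjusted p = 3.2e-08). FEN1 (chromosome 11, 61792911 to 61797238), which trims their flaps, had 142, 117 and 136 and 49.7, 55.1 and 58.9 CPM, a log2 fold change of -1.27 (standard error 0.0734, edgeR adjusted p = 4.68e-09). POLA2 and POLA1 of the primase-coupled polymerase alpha were called at -1.24 and -1.12. The replicative polymerases stayed short of 2-fold, with -0.98 for POLD1, -0.94 for POLE2 and -0.74 for POLE, as did the single-strand binding subunit RPA3 with -0.60. POLE2 (chromosome 14, 49643555 to 49688422) had 12.5, 12.7 and 13.6 CPM with vehicle and 6.09, 7.500 and 6.60 with DHT (standard error 0.102, edgeR adjusted p = 2.19e-06).

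All 4 genes of deoxynucleotide supply were called lower. TK1 (chromosome 17, 78174091 to 78187233), the thymidine kinase of S phase, had 174, 158 and 174 CPM with vehicle and 30.2, 36.7 and 37.7 with DHT, and its log2 fold change of -2.28 (standard error 0.069, edgeR adjusted p = 9.57e-12) was the largest among the members. TYMS (chromosome 18, 657653 to 673578), thymidylate synthase, had 202, 177 and 191 and 44.6, 56.2 and 56.8 CPM, a log2 fold change of -1.86 (standard error 0.0765, edgeR adjusted p = 1.74e-10). Counted without regard to strand, TYMS kept 30.9% of its reads, since a gene overlaps it on the other strand. The ribonucleotide reductase genes were lowered as well. RRM2 (chromosome 2, 10120698 to 10211725) had 297, 225 and 264 and 77.3, 94.5 and 107 CPM, a log2 fold change of -1.497 (standard error 0.105, edgeR adjusted p = 3.02e-08). RRM1 (chromosome 11, 4094707 to 4138932) had 323, 284 and 307 and 122, 141 and 142 CPM, a log2 fold change of -1.17 (standard error 0.0591, edgeR adjusted p = 1.21e-09). In each of these genes DHT replicate 1 was the lowest library.

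UHRF1, which guides maintenance of DNA methylation behind the fork, and all 6 checkpoint and repair genes were called lower. UHRF1 (chromosome 19, 4903080 to 4962154) had 47.4, 41.0 and 44.7 CPM with vehicle and 11.6, 12.9 and 14.3 with DHT, a log2 fold change of -1.78 (standard error 0.0812, edgeR adjusted p = 4.56e-10). Of its 74-nt stretches, 49.9% also occur elsewhere, so its level is uncertain. BRCA2 (chromosome 13, 32315086 to 32400268), which acts in homologous recombination, had 36.3, 31.1 and 34.6 and 6.62, 7.99 and 9.52 CPM, a log2 fold change of -2.08 (standard error 0.106, edgeR adjusted p = 1.38e-09). BRCA1 (chromosome 17, 43044295 to 43170245) had 100.4, 90.2 and 99.9 and 24.4, 28.7 and 29.6 CPM, with -1.81 (standard error 0.0672, edgeR adjusted p = 6.48e-11), and FANCI (chromosome 15, 89243945 to 89317261), of the Fanconi anaemia repair pathway, had 179.6, 166 and 181 and 47.7, 59.95 and 63.6 CPM, with -1.62 (standard error 0.0777, edgeR adjusted p = 7.36e-10). BLM and the checkpoint kinase gene CHEK1 lay close together at -1.65 and -1.66. The 6 genes spanned a narrow range of log2 fold changes, from -2.08 to -1.62.

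Other genes of the cell cycle were read against the members, beside the 7.49% of all genes called lower and the 6.54% called higher. Of 48 further replication and repair genes, 47 were tested and 25 were called lower and 1 higher, with a median log2 fold change of -1.05. BARD1, the partner of BRCA1, had -2.51 and TICRR, a helicase activation factor, -2.07, while the origin recognition subunit ORC5 was the one called higher, at 1.13. All 30 mitosis genes were called lower, with a median of -1.91 and values from -2.27 for TOP2A to -1.49. PTTG1 had -2.22. Among 7 CDK inhibitor genes, CDKN2B and CDKN1C were called higher, at 3.12 and 1.60, but both passed the filter through the DHT-treated libraries alone, so their direction was fixed. CDKN2C was called lower, at -1.75. Of 6 other E2F, DP and pocket genes, none was called by edgeR, 5 had an adjusted p-value under 0.05, and the largest changes were -0.85 for TFDP1 and -0.76 for E2F5. The 10 androgen response genes were all called higher, with a median of 4.07, led by STEAP4 at 9.45 and FKBP5 at 4.90. STEAP4 had 2, 2 and 9 counts with vehicle and passed the filter through the DHT-treated libraries alone, so it had to come out higher.

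E2F factors bind short letters near the start of replication genes, so the 300-base promoter windows of RefSeq on GRCh38.p14 (250 bases before the start and 50 after) were read for TTTCCCGC, TTTGGCGC, TTTCGCGC and TTTGCCGC on either strand. A match is a description of the letters, not a site. Windows were found for 48 of 58 members, and 23 of them (47.9%) held at least 1 match, against 1164 of all 35116 windows (3.31%). With the 7-letter core, which drops the first T of each and so also takes in every longer match, the shares were 66.7% and 13%. The 8-letter match was in 6 of 9 windows of licensing genes, 5 of 8 of the polymerase group, 4 of 6 of the E2F and pocket genes, 3 of 5 of helicase activation, 2 of 5 of the clamp group and 1 of 4 of deoxynucleotide supply. It was in 1 of 5 windows of G1 genes, in that of UHRF1 and in 0 of 5 of repair genes, 2 of which held the core. A match lay within 60 bases of the start in 20 of the 23 members. CCAAT was in 52.1% of members and 34.6% of all windows. TTTGAA, the cell cycle homology letters known from mitosis genes, was in 4.17% of members, 15.2% of all windows and 66.7% of the 24 mitosis genes with a window. For 10 members the window started more than 1000 bases from the gene's start in GENCODE, the farthest being RB1 at 172706 bases. That start is the outermost of the gene's transcripts, and 1 window was read per gene. A short distance thus does not show that the window is the promoter in use. The 0 of 5 for repair genes holds for these windows only. Not in the table were CCND1, CCND2, CCNE2, CDK2, E2F8, MCM4, MCM5, GINS4, RPA3 and FANCI.

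The windows of 5 members with matches are shown, 1 each for the E2F, licensing, clamp and nucleotide groups and a further helicase subunit, beside that of TK1, which had the largest fall and no match. Capitals mark the matched letters, which stand as their reverse complement where the match is on the other strand. The windows lie at chr20:33686336-33686635 (minus strand), chr3:127598161-127598460 (plus), chr2:135876394-135876693 (minus), chr20:5126573-5126872 (minus), chr18:657403-657702 (plus) and chr17:78187155-78187454 (minus). MCM2 and MCM6 hold matches on both strands that overlap, 2 in MCM2 and 4 in MCM6.
E2F1: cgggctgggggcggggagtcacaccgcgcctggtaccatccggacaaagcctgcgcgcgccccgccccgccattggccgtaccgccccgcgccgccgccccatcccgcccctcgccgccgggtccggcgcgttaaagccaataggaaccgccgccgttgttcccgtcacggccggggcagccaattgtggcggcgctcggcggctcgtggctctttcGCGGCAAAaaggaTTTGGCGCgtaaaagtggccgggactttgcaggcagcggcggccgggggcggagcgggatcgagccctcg
MCM2: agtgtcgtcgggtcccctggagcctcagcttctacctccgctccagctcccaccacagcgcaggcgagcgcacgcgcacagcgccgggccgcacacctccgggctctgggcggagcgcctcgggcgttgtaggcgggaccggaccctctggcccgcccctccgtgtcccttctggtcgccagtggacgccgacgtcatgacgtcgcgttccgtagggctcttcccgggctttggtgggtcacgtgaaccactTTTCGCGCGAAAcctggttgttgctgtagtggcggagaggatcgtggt
MCM6: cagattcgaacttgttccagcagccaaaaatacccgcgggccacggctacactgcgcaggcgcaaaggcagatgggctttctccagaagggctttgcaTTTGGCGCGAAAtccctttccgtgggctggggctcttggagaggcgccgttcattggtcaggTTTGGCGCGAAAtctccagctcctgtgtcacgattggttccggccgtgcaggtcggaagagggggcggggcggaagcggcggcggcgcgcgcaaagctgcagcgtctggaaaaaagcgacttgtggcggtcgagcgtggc
PCNA: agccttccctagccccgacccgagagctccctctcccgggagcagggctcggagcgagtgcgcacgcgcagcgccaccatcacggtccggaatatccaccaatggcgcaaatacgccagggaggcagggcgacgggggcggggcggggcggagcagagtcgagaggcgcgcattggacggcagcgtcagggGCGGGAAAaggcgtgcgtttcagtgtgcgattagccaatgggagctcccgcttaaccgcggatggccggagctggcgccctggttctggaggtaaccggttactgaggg
TYMS: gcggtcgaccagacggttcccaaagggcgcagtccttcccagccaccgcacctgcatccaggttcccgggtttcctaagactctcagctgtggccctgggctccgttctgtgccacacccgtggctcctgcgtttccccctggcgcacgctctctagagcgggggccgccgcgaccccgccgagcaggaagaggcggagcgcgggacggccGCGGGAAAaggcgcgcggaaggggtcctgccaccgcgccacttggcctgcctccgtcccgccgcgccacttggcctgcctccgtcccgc
TK1: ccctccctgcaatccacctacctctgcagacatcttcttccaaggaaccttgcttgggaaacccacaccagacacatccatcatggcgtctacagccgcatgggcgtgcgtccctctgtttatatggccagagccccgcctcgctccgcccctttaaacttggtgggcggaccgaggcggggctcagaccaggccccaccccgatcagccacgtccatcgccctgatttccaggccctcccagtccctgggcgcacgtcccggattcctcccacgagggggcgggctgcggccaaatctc
The median DHT changes of members with and without the letters lay close together. The median log2 fold change was -1.32 over the 23 members with a match, -1.46 over the 24 tested members with a window and no match, and -1.40 over the 9 tested members outside the table. Of these, 18, 16 and 6 were called lower.

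PC3 cells were compared with each LNCaP group, since no source used here names the one the study chose. The comparisons share the PC3 libraries and are set side by side. Against vehicle-treated LNCaP cells, 57 members were tested, and PC3 cells had lower calls for 25 and higher calls for 3. Over all 12686 genes, 21.0% were called lower and 22.2% higher, so 43.9% of the tested members were called lower and 5.26% higher. At any fold, 33 members were lower and 4 higher at an adjusted p-value under 0.05, against 40.8% and 42.6% of all genes, and 20 members did not pass. The median log2 fold change was -0.91, against 0.0263 over all genes. Without PC3 replicate 3, 13 members were called lower and 3 higher with a median of -0.43, without replicate 2, 31 lower and 2 higher with -1.14, and without replicate 1, 18 lower and 2 higher with -0.80. The library with the lowest levels thus carried many calls, and 12 calls were lost without it, at log2 fold changes from -0.98 to -0.63. Among them were those of CDK2, CDC25A, E2F8, GMNN, MCM5, MCM6, CDC45, GINS4, RRM1, BRCA2 and FANCI. Without replicate 1, CDK2, CDC25A, E2F8, MCM5, GINS4, RRM1 and BRCA2 lost theirs, at -1.24 to -0.96.

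Against DHT-treated LNCaP cells, 57 members were tested, and PC3 cells had higher calls for 15 and lower calls for 2. Over all 12541 genes, 24.0% were called higher and 22.1% lower. At any fold, 19 members were higher and 2 lower at an adjusted p-value under 0.05, against 42.9% and 41.1% of all genes, and 36 did not pass. The share of members called higher was thus close to the background. The median was 0.40, against 0.0356 over all genes. Without PC3 replicate 3, 24 members were called higher and 2 lower with a median of 0.84, and without replicate 1, 13 and 1 with 0.48. Without replicate 2, which has the highest levels, the counts were 8 higher and 5 lower with a median of 0.13. The calls lost without replicate 2 were those of MCM3, LIG1, TYMS, UHRF1, BRCA2 and BLM, at 0.62 to 0.98, while CCNE2, ORC1 and MCM10 were then called lower, at -1.87 to -1.33. Without DHT replicates 1, 2 and 3 in turn, 9, 10 and 11 members were called higher and 1 lower each time. Against vehicle-treated cells, 3 calls of higher and 9 of lower levels were made in every alternative that tested the gene, and against DHT-treated cells 7 and 1. The higher calls in both include CDK6, which passed the filter through the PC3 libraries alone, so its direction was fixed. The 9 lower calls include CCNE2, E2F2 and ORC1, which passed it through the LNCaP libraries. For these genes, keeping the call is no support for its direction.

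**Figure D3:**
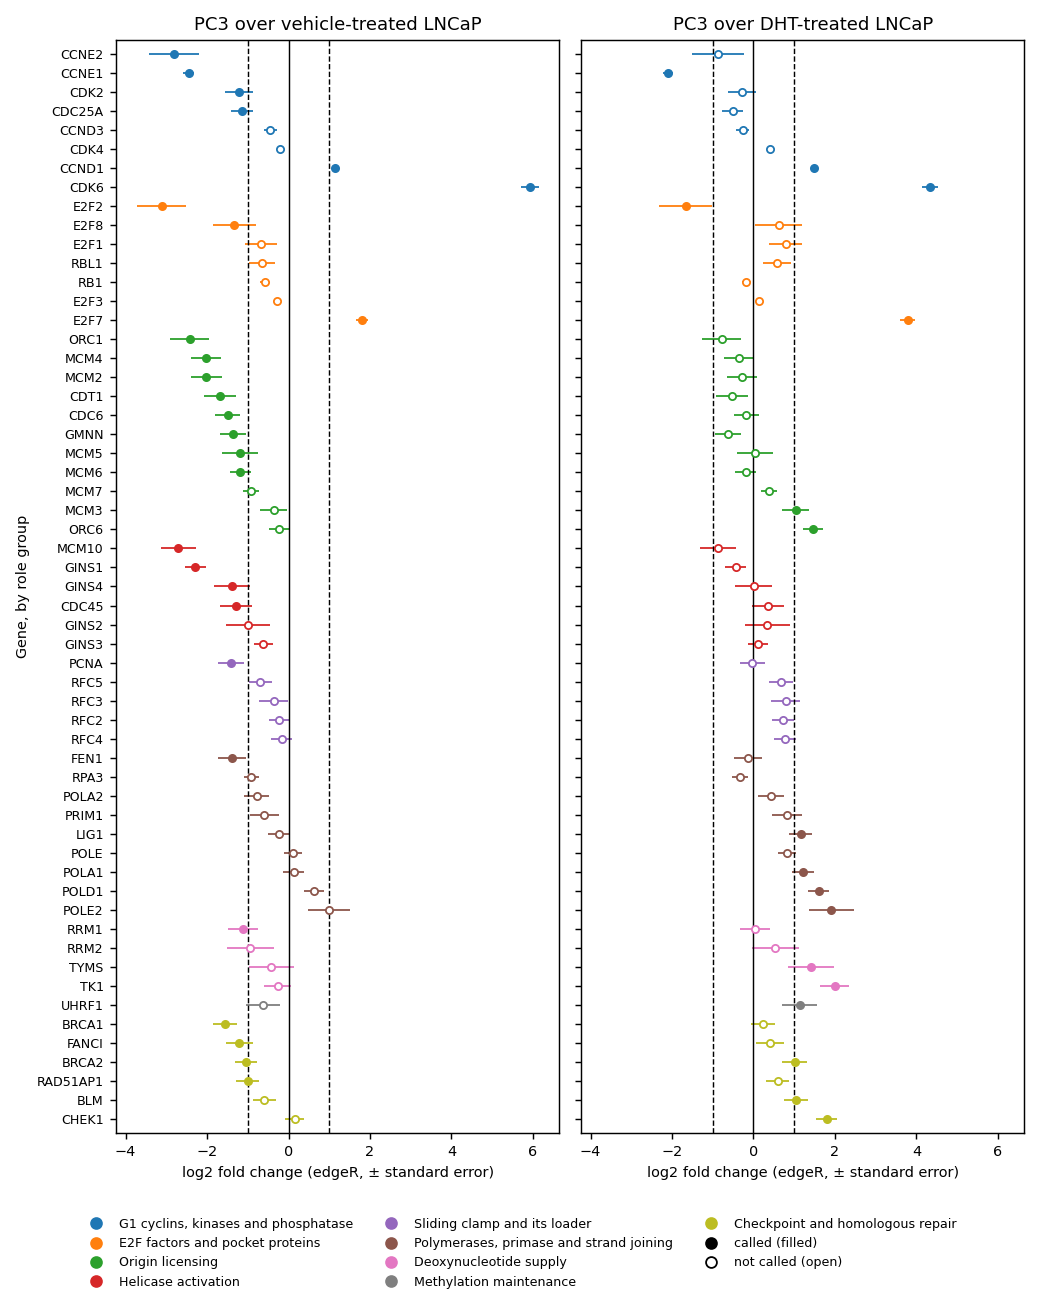
Log2 fold change of 57 members in PC3 cells over vehicle-treated (left) and DHT-treated (right) LNCaP cells (edgeR, bars are standard errors, n = 3 libraries per group), by role group; dashed lines mark 2-fold changes and filled points mark genes called. CDK6, E2F7 and CCND1 lie right of the upper line in both panels, and CCNE1 and E2F2 left of the lower line in both. Most other members lie left of 0 in the left panel and around it in the right.

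CDK6, CCND1 and E2F7 were called higher in PC3 cells in both comparisons, and CCNE1 and E2F2 lower, though the call of E2F2 against DHT-treated cells was lost in 5 of 15 alternatives. CDK6, the partner of D-type cyclins that LNCaP cells nearly lacked, had 42.2, 41.8 and 36.6 CPM in PC3 replicates 1, 2 and 3, against 0.944, 0.329 and 0.711 in vehicle-treated and 1.39, 2.62 and 2.02 in DHT-treated LNCaP cells. It passed the filter through the PC3 libraries alone, so it had to differ, and it was not tested when one of them was left out. The log2 fold changes were 5.93 (standard error 0.229, edgeR adjusted p = 1.75e-07) and 4.33 (standard error 0.192, edgeR adjusted p = 3.06e-07) against vehicle-treated and DHT-treated cells. CCND1 (chromosome 11, 69641156 to 69654474), cyclin D1, had 825, 906 and 913 CPM in PC3 cells, 424, 396 and 389.9 with vehicle and 322, 323 and 303 with DHT. Its log2 fold changes were 1.15 (standard error 0.0752, edgeR adjusted p = 2.75e-06) and 1.48 (standard error 0.0779, edgeR adjusted p = 7.4e-07). Both genes differed little among the PC3 libraries. E2F7 had 91.2, 87.6 and 65.3 CPM in PC3 cells, above all LNCaP libraries, with log2 fold changes of 1.80 (standard error 0.148, edgeR adjusted p = 1e-05) and 3.78 (standard error 0.19, edgeR adjusted p = 5.69e-07). With single PC3 libraries left out, CCND1 had 1.21 to 1.28 against vehicle-treated and 1.58 to 1.65 against DHT-treated cells. E2F7 had 1.80 to 2.03 against vehicle-treated and 3.81 to 4.04 against DHT-treated cells.

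Both E-type cyclins were called lower in PC3 cells against vehicle-treated cells. CCNE1 had 4.37, 5.57 and 4.74 CPM in PC3 cells, 28.4, 24.2 and 29.1 with vehicle and 20.3, 20.6 and 21.6 with DHT. The log2 fold changes were -2.45 (standard error 0.135, edgeR adjusted p = 1.07e-06) and -2.09 (standard error 0.123, edgeR adjusted p = 1.33e-06), and -2.46 to -2.29 and -2.07 to -1.89 with single PC3 libraries left out. CCNE2 had 5.98, 17.4 and 1.82 CPM in PC3 cells, all below the vehicle-treated libraries, with replicate 2 within the DHT-treated range. Its log2 fold change against vehicle-treated cells was -2.81 (standard error 0.621, edgeR adjusted p = 0.00332), and -3.82 to -2.26 with single PC3 libraries left out. Against DHT-treated cells the value was -0.88 (standard error 0.639, edgeR adjusted p = 0.227). CDK2 had 35.7, 59.6 and 20 CPM in PC3 cells, with -1.22 (standard error 0.343, edgeR adjusted p = 0.0108) against vehicle-treated cells and -0.28 against DHT-treated cells (adjusted p = 0.47). CDC25A was called lower against vehicle-treated cells at -1.13. CDK4 and CCND3 had -0.21 and -0.44, both under 2-fold. Among the E2F factors, E2F2 had 1.42, 3.44 and 0.158 CPM in PC3 cells, and was called lower at -3.12 (standard error 0.612, edgeR adjusted p = 0.00175) and -1.66 (standard error 0.648, edgeR adjusted p = 0.042), the last value lying at -2.60 to -1.004 with single PC3 libraries left out. The call against DHT-treated cells was lost without PC3 replicate 1, without any one DHT-treated library and in the test against a 2-fold change. E2F8 had 9.09, 18.4 and 2.85 CPM, with -1.34 (standard error 0.527, edgeR adjusted p = 0.0448) against vehicle-treated and 0.62 against DHT-treated cells (adjusted p = 0.338). The call of E2F8 was lost in 7 of 16 alternatives, among them DESeq2 (adjusted p = 0.0684), leaving out PC3 replicate 1 or 3 and leaving out any one vehicle-treated library. E2F1, RBL1, RB1 and E2F3 were not called in either comparison. CCNE2, E2F2, E2F8 and ORC1 had at least 1 PC3 library at or under 3 CPM and passed the filter through the LNCaP libraries.

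Licensing and helicase activation held 12 of the 25 genes called lower against vehicle-treated cells, 8 of 11 and 4 of 6, beside 21.0% of all genes. Without PC3 replicate 3 these were 5 of 11 and 2 of 6, without replicate 2, 9 and 5, and without replicate 1, 7 and 3. Over all genes, 2462 of 11584, 2519 of 11587 and 2455 of 11586 were called lower in these fits. ORC1 had 6.06, 11.3 and 2.10 CPM in PC3 cells and log2 fold changes of -2.43 (standard error 0.47, edgeR adjusted p = 0.00163) and -0.78 (adjusted p = 0.165) against vehicle-treated and DHT-treated cells. MCM4 had 59.5, 107 and 34.4 CPM, with -2.02 (standard error 0.369, edgeR adjusted p = 0.00119) and -0.37 (adjusted p = 0.361). MCM2 had 45.2, 85.2 and 26.9 CPM, with -2.02 (standard error 0.378, edgeR adjusted p = 0.00136) and -0.28 (adjusted p = 0.494). In each of these genes PC3 replicate 3 was below all 6 LNCaP libraries, and replicate 2 lay between the mean of the DHT-treated group and the lowest vehicle-treated library. MCM10 had 8.70, 17.5 and 4.11 CPM, with -2.70 (standard error 0.434, edgeR adjusted p = 0.000566), and GINS1 had 15.6, 24.1 and 10.8 CPM, with -2.29 (standard error 0.264, edgeR adjusted p = 8.03e-05). With single PC3 libraries left out, the values against vehicle-treated cells were -2.999 to -1.93 for ORC1, -2.45 to -1.62 for MCM4 and -2.47 to -1.62 for MCM2, while MCM10 had -3.27 to -2.25 and GINS1 -2.55 to -1.97. ORC6 and MCM3 differed from this pattern, at -0.23 and -0.37 against vehicle-treated cells, and were called higher against DHT-treated cells, at 1.47 and 1.04. The call of MCM3 was lost in 7 of 16 alternatives, among them the replicate block and leaving out PC3 replicate 2 or any one DHT-treated library. ORC6 had 35.9, 46.3 and 22.9 CPM in PC3 cells. No gene of helicase activation was called against DHT-treated cells by edgeR, and none of the 6 had an unadjusted p-value under 0.05 by the same test.

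Against vehicle-treated cells, 1 of 5 clamp genes, 1 of 9 polymerase genes, 1 of 4 nucleotide genes and 4 of 6 repair genes were called lower, beside 21.0% of all genes. Without PC3 replicate 3, 1, 1, 0 and 1 of these were, and the groups were not tested against each other. PCNA had 81.3, 139 and 54.6 CPM in PC3 cells and was called lower at -1.41 (standard error 0.311, edgeR adjusted p = 0.00322), all PC3 libraries lying below all vehicle-treated ones. RFC5 had 50.8, 61.2 and 25.6 CPM and -0.69 (standard error 0.288, edgeR adjusted p = 0.0551). FEN1 had 43.6, 77.4 and 27.2 CPM and was called at -1.39 (standard error 0.339, edgeR adjusted p = 0.00559). PRIM1 and LIG1 had 29.8, 40.7 and 13.0 and 28.7, 38.6 and 17.2 CPM in PC3 cells, with -0.59 and -0.24 against vehicle-treated cells. LIG1 was called higher against DHT-treated cells at 1.16, a call lost in 3 of 16 alternatives. POLE2 had 26.9, 41.2 and 7.39 CPM, a wide spread, with 0.99 (standard error 0.523, edgeR adjusted p = 0.112) and 1.91 (standard error 0.547, edgeR adjusted p = 0.0116). With single PC3 libraries left out, PCNA had -1.76 to -1.06 and FEN1 -1.78 to -1.01 against vehicle-treated cells, and POLE2 1.47 to 2.46 against DHT-treated cells. POLD1 and POLA1 were called higher against DHT-treated cells too, at 1.60 and 1.22.

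TK1 had 156, 189 and 68.1 CPM in PC3 cells, with -0.27 against vehicle-treated (adjusted p = 0.465) and 1.99 (standard error 0.347, edgeR adjusted p = 0.000849) against DHT-treated cells. TYMS had 140.1, 241 and 36.7 CPM, with -0.42 (adjusted p = 0.493) and 1.42 (standard error 0.565, edgeR adjusted p = 0.0455). That call of TYMS was lost in 8 of 16 alternatives, among them DESeq2 (adjusted p = 0.058), the replicate block (edgeR adjusted p = 0.101) and leaving out PC3 replicate 1 or 2 or any DHT-treated library. The value of TK1 against DHT-treated cells was 1.80 to 2.43 with single PC3 libraries left out. RRM1 had 144, 204 and 64.3 CPM and was called lower against vehicle-treated cells at -1.12 (standard error 0.361, edgeR adjusted p = 0.0206), while RRM2, with 125, 242 and 33.8 CPM, did not pass at -0.94 (adjusted p = 0.163). In all 4 genes replicate 3 was the lowest PC3 library, below every DHT-treated library for RRM1, RRM2 and TYMS. UHRF1 had 23.5, 48.4 and 12.9 CPM and -0.62 and 1.14 against the LNCaP groups, and was called higher in the second. That call of UHRF1 was lost in 7 of 16 alternatives, among them the replicate block and leaving out PC3 replicate 2 or any one DHT-treated library. BRCA1 had 33.5, 45.2 and 18.3 CPM and was called lower against vehicle-treated cells at -1.56 (standard error 0.288, edgeR adjusted p = 0.00126), and -1.79 to -1.19 with single PC3 libraries left out. BRCA2 had 15.8, 22.7 and 9.802 CPM, between the LNCaP groups, with -1.05 and 1.01, each called and near the 2-fold line. The first call was lost without PC3 replicate 1 or 3. The second was lost in 6 of 16 alternatives, among them the replicate block and leaving out PC3 replicate 2 or DHT replicate 1 or 2. FANCI had 80.0, 107 and 36.8 CPM and -1.21 (standard error 0.335, edgeR adjusted p = 0.0103). CHEK1 was at 0.15 against vehicle-treated and was called higher against DHT-treated cells, at 1.79.

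**Figure D4:**
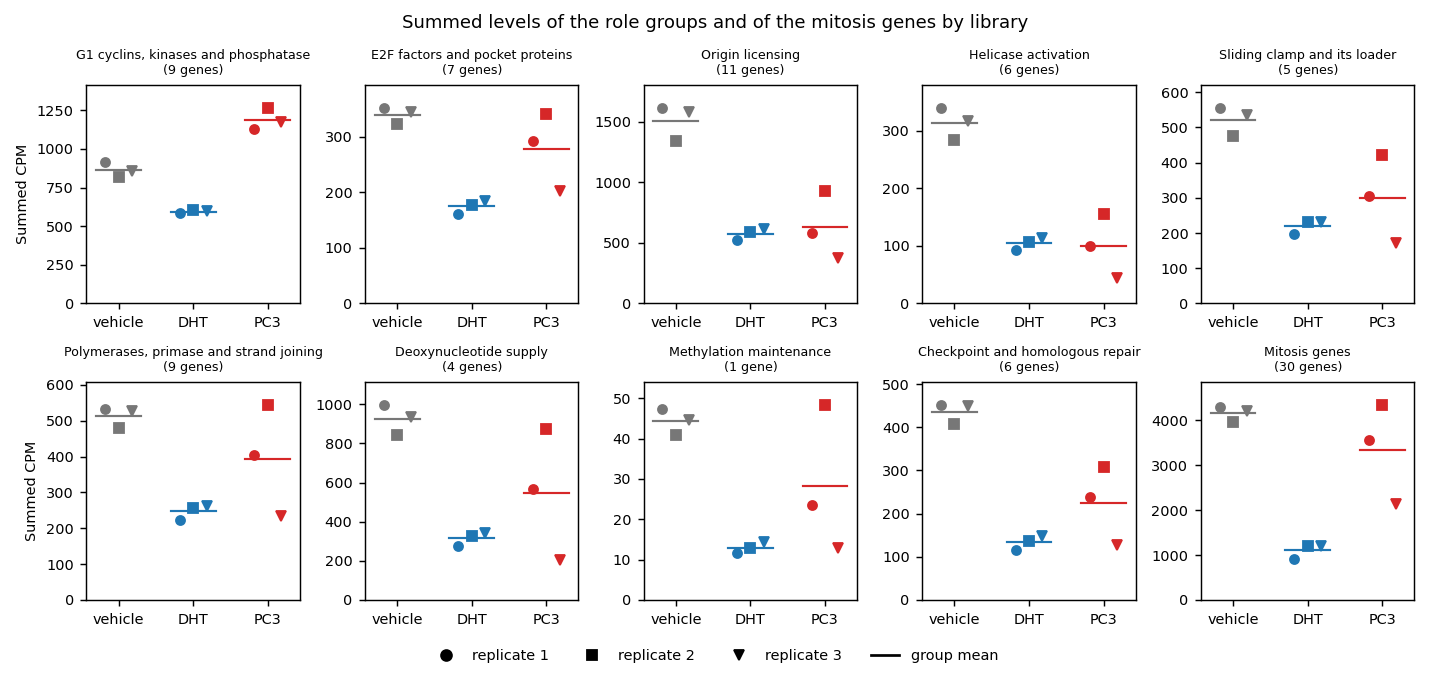
Summed CPM of each role group and of 30 mitosis genes in the 9 libraries (one point per library, shape gives the replicate, bar is the group mean, axes start at 0). DHT-treated libraries lie close together below all vehicle-treated ones in every panel, and PC3 replicate 2 lies above replicate 3 in every panel, by the smallest factor for the G1 genes (1262 against 1175 CPM).

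The summed levels of the role groups spread unequally among PC3 libraries. The G1 genes summed to 1130, 1262 and 1175 CPM in PC3 replicates 1, 2 and 3, mostly from CCND1 and CDK4. This sum does not stand for each G1 gene. In PC3 replicates 2 and 3, CCNE2 had 17.4 and 1.82 CPM, CDK2 59.6 and 20, CDC25A 27.4 and 12.5 and CCND3 41.7 and 27.9. CCNE1 and CDK6 differed less, at 5.57 and 4.74 and at 41.8 and 36.6 CPM. Helicase activation genes summed to 100.1, 155.4 and 44.2 CPM and deoxynucleotide genes to 565, 876 and 203 CPM. Against these, the vehicle-treated libraries held 339, 284 and 318 CPM for helicase activation and 997, 844 and 935 CPM for deoxynucleotide supply, and the DHT-treated ones 93.6, 107 and 114 CPM and 275, 328 and 344 CPM. PC3 replicate 3 thus lay below every DHT-treated library in both sums and replicate 2 above every one. Over all genes, 21.0% were called lower and 22.2% higher against vehicle-treated cells, and 22.1% and 24.0% against DHT-treated cells. Of the 30 mitosis genes, 0 were called higher and 4 lower (13.3%, under the share of all genes) against vehicle-treated cells. Against DHT-treated cells 21 (70%) were called higher and 0 lower by edgeR. Without PC3 replicate 3, 2 were higher and 1 lower, and 28 higher and 0 lower, and without replicate 2, 10 were lower against vehicle-treated cells. The largest values were -1.42 for CCNA2 and -1.39 for CDK1 against vehicle-treated cells, and 2.98 for BIRC5 and 2.54 for CENPA against DHT-treated cells. Of the 47 further replication genes tested, 15 (31.9%) were called lower and 0 higher against vehicle-treated cells, with BARD1 at -3.89. Against DHT-treated cells 13 were higher (27.7%, near the share of all genes) and 5 lower (10.6%), with RECQL4 at 2.42. Without PC3 replicate 3, these counts were 8 lower and 1 higher, and 19 higher and 2 lower. Of 7 CDK inhibitor genes, 3 were called higher (42.9%) and 2 lower (28.6%) in either comparison, among them CDKN2B at 6.65 and 3.51 and CDKN1A at -3.28 and -3.62. Against vehicle-treated cells, CDKN2B and CDKN1C passed the filter through the PC3 libraries alone, and with any PC3 library left out 5 of the 7 genes were tested, 1 being called higher and 2 lower. E2F5 and TFDP1 were called higher in both, at 1.36 and 1.13 against vehicle-treated and 2.10 and 1.96 against DHT-treated cells. Of the androgen response genes, 7 of 9 tested were called lower and 1 higher against vehicle-treated cells. Against DHT-treated cells 10 of 10 were called lower. KLK2 had 0 counts in PC3 cells, with KLK3 at -10.74 and -13.65. Both passed the filter through the LNCaP libraries alone, as STEAP4 did against DHT-treated cells, so their direction was fixed.

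Counts were divided by the length of the canonical transcript to compare levels between genes of a family, as CPM per kb. Cyclin D1 made up 92.6% ± 1.39 (SD, n = 3) of the D-type cyclins in PC3 cells, 78.6% ± 1.73 in DHT-treated and 80.4% ± 1.26 in vehicle-treated LNCaP cells, and cyclin D3 nearly all of the rest. CDK6 made up 3.80% ± 0.219 (SD, n = 3) of CDK4 and CDK6 together in PC3 cells, 0.256% ± 0.0717 with DHT and 0.0546% ± 0.0238 with vehicle, so CDK4 was by far the more abundant kinase in every library. The balance of the E-type cyclins differed between the LNCaP groups. CCNE1 made up 36.6%, 38.5% and 40.3% of the pair with vehicle and 69.0%, 63.7% and 62.1% with DHT, and the groups did not overlap. In PC3 replicates 1, 2 and 3 its share was 49.98%, 30.5% and 78.1%, a range wider than both LNCaP groups together. E2F1 was the most abundant of 5 E2F genes with vehicle, at 53.0% ± 1.34 (SD, n = 3), and E2F7 made up 7.20% ± 0.224. E2F3 made up 39.7% ± 3.07 (SD, n = 3) with DHT and 22.8% ± 1.94 with vehicle, although its own level was lower with DHT, at 9.61 ± 0.161 against 13.0 ± 0.120 CPM per kb. In PC3 cells E2F7 held 31.7% ± 5.85 (SD, n = 3) of these 5 genes. E2F4, E2F5 and E2F6, which are not members, were not counted in the E2F shares.

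**Figure D5:**
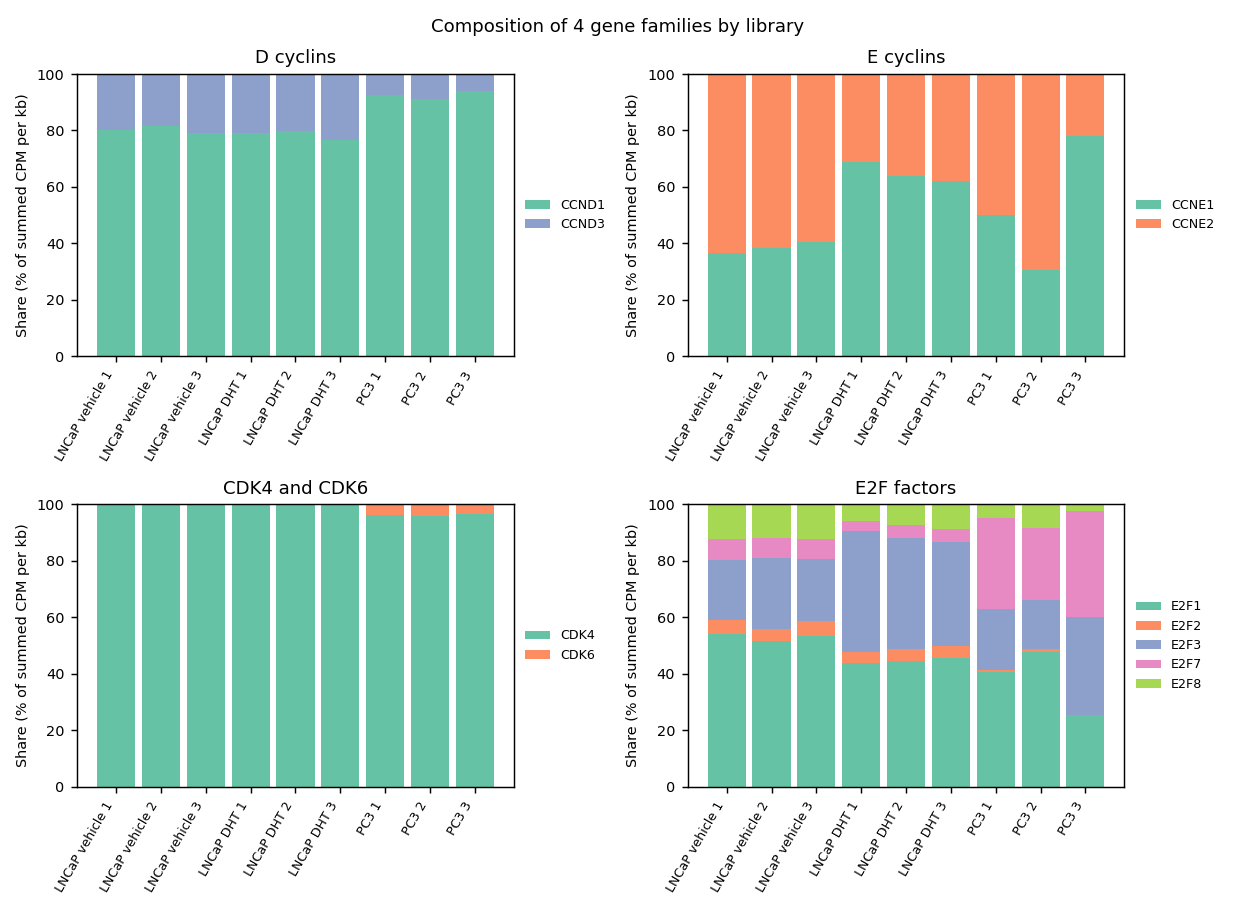
Share of each gene in the summed CPM per kb of its family, per library (one bar each, in % of the family, all axes from 0 to 100). CCND2, under 0.1% in every library, is not drawn. The E2F panel holds only E2F1, E2F2, E2F3, E2F7 and E2F8, and E2F4, E2F5 and E2F6 are not counted. CCNE1 takes a larger share of the E-type cyclins in each DHT-treated library than in any vehicle-treated one. E2F7 takes a larger share of the E2F genes drawn in the PC3 libraries than in any LNCaP library.

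The 6 subunits of the MCM helicase, which assemble in equal numbers, differed in transcript level. In CPM per kb with vehicle, MCM7 stood at 119 ± 10.5 (SD, n = 3), MCM4 at 68.2 ± 6.17, MCM2 at 63.0 ± 7.38, MCM3 at 54.1 ± 4.38, MCM6 at 41.0 ± 3.60 and MCM5 at 33.0 ± 4.15. MCM7 was the highest subunit in every library. The ratio of the highest to the lowest subunit was 3.413 to 3.784 in vehicle-treated, 3.376 to 3.489 in DHT-treated and 3.518, 4.417 and 8.544 in PC3 replicates 2, 1 and 3. The ratio was thus nearly the same in the LNCaP groups, although all 6 subunits were called lower with DHT, and it was highest in the PC3 library with the lowest levels. In vehicle-treated cells the values of MCM4 and MCM2 overlapped between libraries, as did those of MCM2 and MCM3, while MCM7, MCM6 and MCM5 each stood apart from their neighbours. Over all members, PCNA was the highest with vehicle, at 195 ± 18.6 CPM per kb (SD, n = 3), and CCND1 the highest in PC3 cells at 208 ± 11.6 and with DHT at 74.5 ± 2.72, where PCNA stood at 73.9 ± 6.99, within the spread of both.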

How the data were processed

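The members and the gene lists were chosen with earlier results of these data known. Per the submitters' processing notes and the study's methods, the authors trimmed single-end 74-nt reads with cutadapt 4.1, aligned them to GRCh38 with STAR 2.7.7a, removed duplicates by molecular identifier with UMI-tools 1.1.2 and deposited whole-number counts per gene and strand, with 0 columns from other samples. The study's methods give other versions of cutadapt and STAR. The stranded counts were used here. Libraries were grouped by the labels. Each comparison was fitted over its 6 libraries with edgeR 4.0.16 (R 4.3.3) by the quasi-likelihood test with TMM factors, for genes over 3 CPM in at least 3 libraries, with Benjamini-Hochberg adjustment over all genes tested. Calls needed both a 2-fold change or more and an adjusted p-value under 0.05. Printed CPM use TMM factors over all 9 libraries. The study's batch term was left out because no source used here names the batches.

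Values of every library are given for 26 members, those with the 2 largest changes per role group in DHT against vehicle and in PC3 against vehicle-treated cells; CCND1, CCNE1, CDKN1C and ORC5 were named after their values were seen. Values of some genes that this rule or the lists hold are not reported here. Same-numbered LNCaP libraries deviated together (correlations 0.45, 0.30 and 0.23, other pairs -0.36 to 0.09), so the numbers paired them. No libraries were duplicates (chi-square per degree of freedom 2.26 to 54.5). Alternatives were DESeq2 1.42.0, its size factors, the likelihood ratio test, the replicate block, other filters, unstranded counts, a test against 2-fold, all 9 libraries in 1 fit and leaving out each library. On simulated counts, 99 of 99 genes changed by 1.5 on the log2 scale were recovered for DHT against vehicle (11530 genes), 97 of 97 for PC3 against vehicle-treated (12267 genes) and 94 of 97 for PC3 against DHT-treated cells (12175 genes). In the same order, 0, 2 and 3 unchanged genes were called. Genes were drawn independently, so the simulation does not cover members that vary together among PC3 libraries, nor changes near 2-fold.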

Additional observations from a re-analysis of the deposited data

How the results depend on the processing

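The DHT result kept its direction throughout. Between 39 and 44 members were called lower with single libraries left out, and 37 of 40 calls were made under every alternative, the exceptions being CDT1, POLA1 and MCM6. In addition 1 member, CDK6, was called higher with no filter on low counts and with all 9 libraries in 1 fit. With the replicate block, 40 members were lower and 0 higher with DHT, and PC3 cells against vehicle-treated cells had 25 lower and 3 higher, as without it. Against DHT-treated cells, PC3 cells had 10 members higher and 2 lower with the replicate block by the quasi-likelihood test and 11 and 5 by the likelihood ratio test, although PC3 numbers did not pair with LNCaP numbers (correlations from -0.13 to 0.04). The test against a 2-fold change left 9 members lower against vehicle-treated cells, and 7 higher and 1 lower against DHT-treated cells. A minimum of 10 counts left 1 lower against DHT-treated cells. With single libraries left out, 13 to 31 members were lower against vehicle-treated cells, and 8 to 24 were higher and 1 to 5 lower against DHT-treated cells. PC3 replicates 2 and 3 and DHT replicate 1 (9 higher) moved the lower count against vehicle-treated or the higher count against DHT-treated cells by over 1.5 times. The 2 lower calls against DHT-treated cells became 1 without PC3 replicate 1 or any one DHT-treated library, and 5 without PC3 replicate 2. The cause was not tested. With the 7-letter core, 32 member windows held a match.

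Members with changes near 0 in PC3 cells took the other sign in some fits. With single libraries left out, log2 fold changes against DHT-treated cells ranged as follows, lowest to highest: CDC6 -0.40 to 0.23, CDK2 -0.62 to 0.15, E2F8 -0.021 to 1.18, FEN1 -0.50 to 0.27, GINS2 -0.16 to 0.92, GINS3 -0.073 to 0.45, GINS4 -0.50 to 0.51, MCM2 -0.70 to 0.15, MCM4 -0.77 to 0.063, MCM5 -0.40 to 0.54, MCM6 -0.43 to 0.14, PCNA -0.35 to 0.35, RB1 -0.29 to 0.040, RRM1 -0.25 to 0.49 and RRM2 -0.11 to 1.11. Against vehicle-treated cells they were CHEK1 -0.025 to 0.47, LIG1 -0.45 to 0.099, MCM3 -0.74 to 0.0086, ORC6 -0.43 to 0.086, POLA1 -0.066 to 0.47, POLE -0.064 to 0.39, RFC2 -0.40 to 0.13, RFC3 -0.65 to 0.055, RFC4 -0.34 to 0.18, TK1 -0.48 to 0.14 and TYMS -0.99 to 0.11. Against DHT-treated cells, GINS3 was -0.23 with unstranded counts and PCNA 0.0076 with the minimum of 10 counts. GINS4 was -0.0025 with DESeq2, -0.0056 with its size factors and -0.0076 with all 9 libraries. With the replicate block, by the quasi-likelihood and the likelihood ratio test, GINS4 was -0.19 and -0.22, MCM5 -0.17 and -0.18, and RRM1 -0.11 and -0.11.

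Depth limits CCND2, with 0 to 4 counts per library, and E2F2 in PC3 replicate 3. UHRF1 shares 49.9% of its 74-nt stretches with other sites, and RRM2, ORC6 and FEN1 5.53%, 4.93% and 4.01%.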
